A study of Mus musculus with 10 samples.

Results

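The baseline profile described here is the mRNA composition of the mouse eyeball under natural light. It rests on 2 libraries, control A and control B, which are the natural light libraries among the 5 mRNA libraries of a series of 10 samples. They were picked out by their labels. Both came from whole eyeballs of female Kunming mice, a Swiss-derived outbred stock, aged 4 weeks and kept in ambient natural light, with day 14 in the sample titles. The labels name no transgene or deletion. The labels do not say whether the libraries came from separate animals or from pooled eyes, so the spread between them may be technical. The series was built to set mice under blue light against these controls, and the libraries from blue light were not analysed here.

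The eyeball joins tissues with very different jobs. Rod and cone photoreceptors of the retina turn light into an electrical signal through an opsin, the G protein transducin, a phosphodiesterase and a cyclic nucleotide-gated channel. Bipolar, amacrine, horizontal and ganglion cells pass the signal on, and Müller glia and the pigment epithelium support the photoreceptors. The lens is filled with crystallins, soluble proteins that make it transparent and refractive, while the cornea is a keratin-bearing epithelium over a collagen stroma. Extraocular muscles, vessels and connective tissue remain attached to an eye to a degree that depends on how it was dissected. In a bulk library of this kind, fewer cells of a type and less RNA per cell cannot be told apart.

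The deposited table held 24736 gene symbols, and its estimated counts, called units below, summed to 107660103 in control A and 87071487 in control B. Each value is given as a share of its library's units, either of all units or of the remaining units once the symbols Rn45s and Malat1 are set aside. The remaining units numbered 99202920 in A and 72328183 in B. A longer transcript yields more fragments for the same number of molecules, and transcript lengths were not used, so the order of the shares is an order of library content and not of transcript number. In all, 20070 symbols had at least 1 unit in A and 19787 in B. Of these, 19264 had units in both libraries, while 4143 symbols were listed at 0 in both. The 806 symbols seen in A alone and the 523 seen in B alone had a median of 5 units, which is close to the smallest values in the table. Detection of a gene therefore differed between the libraries mainly at the bottom of the range.

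The largest entries were a ribosomal RNA precursor, a nuclear long noncoding RNA, and the proteins of the rod and the lens. Rn45s, the precursor of the cytoplasmic ribosomal RNAs, held 4.30% of all units in A and 14.1% in B. Malat1, a long noncoding RNA retained in nuclear speckles, held 3.55% in A and 2.84% in B. Among the protein-coding genes, Cryaa, the small heat shock protein alpha A-crystallin, stood at 1.20% and 0.953%. Crybb2 at 0.776% and 0.878% and Cryba1 at 0.804% and 0.731%, both beta-crystallins, were also prominent. Among the 20 genes with the largest mean share were 9 crystallins (Cryaa, Crybb2, Cryba1, Crygb, Crygd, Crygs, Cryge, Cryab and Crygc) and the photoreceptor genes Sag, Gnat1 and Rbp3. Rn45s, Malat1, Lars2, Xist, Ahnak, Gnb1 and Ttn were also among them.

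**Figure D1:**
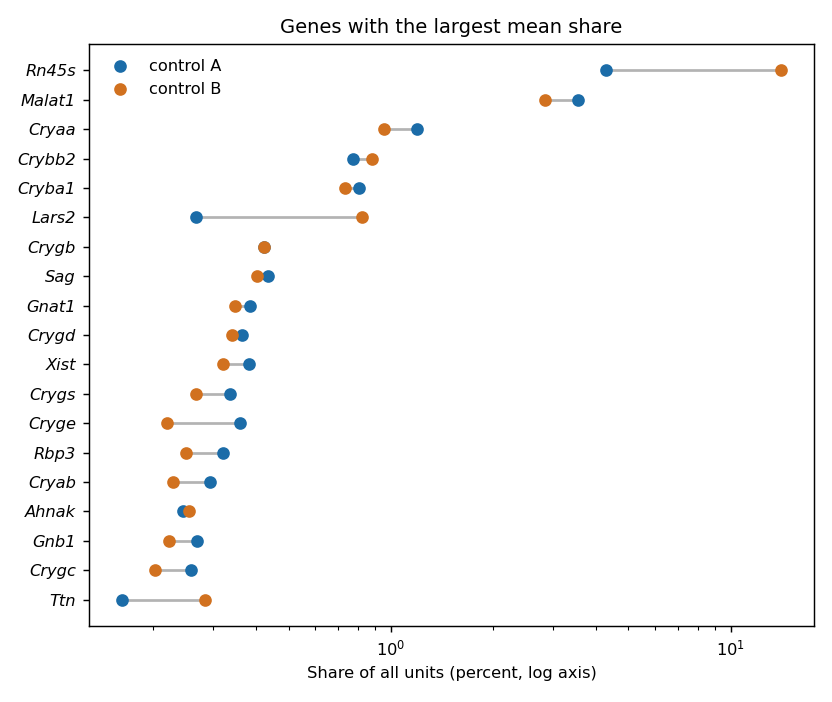
Share of all units (percent, log axis) of 19 of the 20 genes with the largest mean share in the natural light eyeballs, with a point for control A, a point for control B and a grey line between them. Rn45s runs from 4.30% to 14.1% and Lars2 from 0.267% to 0.822%, the widest gaps of those shown, while the points of Crygb (0.422% and 0.423%) coincide.

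Most of the difference in concentration between the libraries lay in Rn45s. The 10 largest genes of each library held 13.4% of all units in A and 22.5% in B, a mean of 18.0% ± 6.37 (SD, n = 2). Among the remaining units the 10 largest held 6.86% and 7.44%, the 100 largest 18.99% and 19.4%, and the 1000 largest 46.6% and 46.4%. Reaching 50% of all units took 954 genes in A and 675 in B. Reaching 50% of the remaining units took 1197 and 1215 genes, and reaching 90% took 6974 and 7052. Once the pair of noncoding symbols was set aside, the cumulative curves of the libraries nearly coincided.

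**Figure D2:**
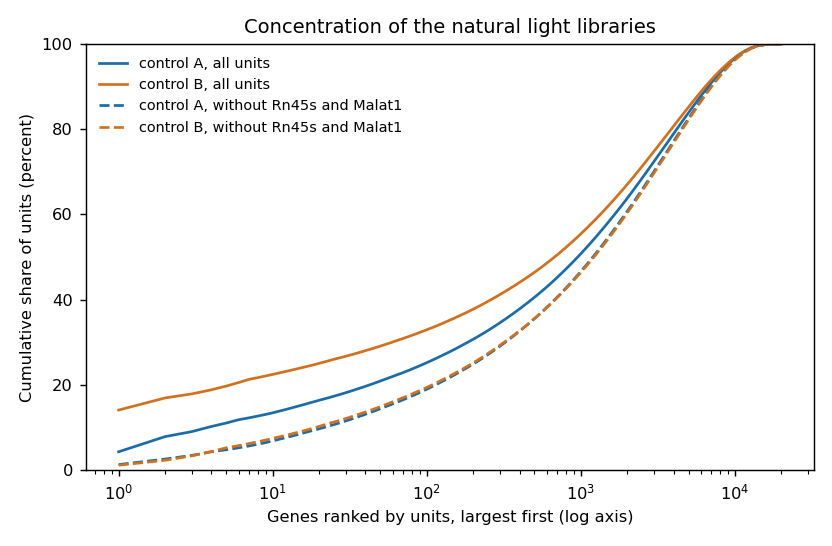
Cumulative share of units (percent) against the number of genes, ranked from the largest (log axis), for control A and control B, with all units as solid lines and without Rn45s and Malat1 as broken lines. The solid lines start at 4.30% and 14.1%, and the broken lines lie together, at 18.99% and 19.4% for 100 genes.

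Lars2, the nuclear gene for the mitochondrial leucyl-tRNA synthetase, lay with Rn45s and apart from other protein-coding genes of its size. It held 0.267% of all units in A (287802 units) and 0.822% in B (715624 units). Its ratio of B to A on all units was 3.07, beside 3.27 for Rn45s and 0.799 for Malat1. As a share of the remaining units it stood at 0.290% and 0.989%, so setting aside Rn45s did not bring the libraries together for this gene. Without Lars2 as well, the 10 largest genes held 6.88% of A and 6.86% of B. The part of Rn45s in the Lars2 values was not tested. Per the labels' protocols, ribosomal RNA had been captured with probes and removed before sequencing, and the Rn45s share is what was counted after that step.

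By annotation most units were protein-coding. Protein-coding symbols held 89.9% of all units in A and 81.3% in B, and 97.6% and 97.9% of the remaining units. Long noncoding RNAs other than Malat1 held 1.68% and 1.502% of the remaining units. Small structured RNAs were poorly represented, as 120 small nucleolar RNA symbols together held 0.00585% and 0.00623% of all units. The exceptions were Rpph1, the RNA of RNase P, at 0.202% and 0.132% of all units, and Rmrp, the RNA of RNase MRP, at 0.0789% and 0.0697% of the remaining units. None of the symbols matched the mitochondrially encoded genes, so the share of mitochondrial transcripts was not analysed here. The 50 symbols placed on chromosome Y were at 0 in both libraries, and Xist, the long noncoding RNA that coats the inactive X chromosome, held 0.383% and 0.321% of all units, which fits the label female.

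The order of genes was close between the libraries, with a Spearman correlation of 0.987 across 24736 symbols. This is a description across genes of libraries made alike, not a test, and 90 of the 100 largest genes of the remaining units were shared. To read the lists below, a background count was made over the 16623 genes with a mean of at least 50 units. Of these, 499 had a share of the remaining units more than 2-fold higher in B (3.00%) and 257 one more than 2-fold higher in A (1.55%). With all units as the denominator, the counts over 16625 genes were 387 (2.33%) and 383 (2.30%). The median log2 ratio of B to A was -0.0056 on the remaining units and -0.16 on all units, a shift that follows from the larger Rn45s share of B. Genes with few units supplied many of these: 17.7% of the 2054 genes with a mean of 50 to 200 units were more than 2-fold apart, and 1.06% of the 4149 genes with at least 5000. Shares below refer to the remaining units unless stated otherwise, and a median ratio is a log2 ratio of B to A. How many of all genes had the higher share in B was not counted, so the median of -0.0056 is set beside the list medians. At background shares this low, a count of 0 genes apart in a short list says little.

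The tissue markers bore out the label eyeball. Sag and Gnat1 of rods, Cryaa and Mip of the lens, and Krt12 and Aldh3a1 of the corneal epithelium were each above 0.1% of the remaining units in both libraries. Rpe65, the retinoid isomerase of the pigment epithelium, stood at 0.0186% and 0.0214%. Best1, a channel of the same epithelium, had 65 and 40 units and was therefore near the low end. Markers of other organs were near 0. Alb, the serum albumin of liver, had 5 units in A and 0 in B, Cpa1 of the pancreas had 5 and 2, and Prm1 of the testis had 0 and 3. Neurod6 of the cerebral cortex had 79 and 68 units.

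Rod genes formed the largest retinal group. The 17 rod genes together held 2.95% of the remaining units in A and 2.78% in B, a mean of 2.87% ± 0.120 (SD, n = 2). Sag, the rod arrestin, which ends the light response, held 0.473% and 0.486%. Gnat1, the rod transducin alpha subunit, held 0.417% and 0.418%. Both thus nearly coincided between the libraries. The catalytic subunits of the rod phosphodiesterase followed, Pde6b at 0.130% and 0.120% and Pde6a at 0.120% and 0.127%, and the small inhibitory subunit Pde6g stood at 0.0693% and 0.0537%. The rod channel subunits Cngb1 (0.0595% and 0.0566%) and Cnga1 (0.0344% and 0.0335%) were lower. Nrl and Nr2e3, the transcription factors that set rod fate, held 0.0236% and 0.0218%, and 0.0239% and 0.0232%. None of the 17 rod genes was more than 2-fold apart, and their median ratio was -0.073. Of all genes tested, 3.00% were more than 2-fold higher in B and 1.55% in A, so a 0 here says little.

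Genes used by rods and cones alike held 1.93% and 1.76% over 25 members. Again none was more than 2-fold apart, beside 3.00% (higher in B) and 1.55% (higher in A) of all genes tested. Rbp3, the retinoid carrier of the space between photoreceptors and pigment epithelium, led with 0.349% and 0.301%. Next came Rp1, a protein of the outer segment axoneme (0.201% and 0.180%), and Prph2, the tetraspanin that shapes the disc rim (0.181% and 0.169%). Rgs9, which speeds the shutoff of transducin, held 0.179% and 0.164%. Abca4, the flippase that clears retinoid from the discs, held 0.149% and 0.123%. The photoreceptor lists with cones came to 54 genes and 4.96% of A and 4.60% of B.

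Cone genes held a small share, and their 12 members all had a higher share in A. The list summed to 0.0769% in A and 0.0602% in B, with a median ratio of -0.39, beside -0.0056 over all genes tested. Opn1sw, the short-wavelength cone opsin, had 24754 units in A and 14316 in B, or 0.0250% and 0.0198%. Opn1mw, the middle-wavelength opsin, had 3563 and 1828 units, or 0.00359% and 0.00253%. Arr3, the cone arrestin, stood at 0.00764% and 0.00599%, and Gnat2, the cone transducin alpha subunit, at 0.00613% and 0.00474%. Cngb3, a subunit of the cone channel, was the 1 member more than 2-fold apart, with 4489 units in A and 1634 in B. That is 8.33% of the list, beside 1.55% of all genes tested that were more than 2-fold higher in A. The rest of the cone list had ratios of B to A between 0.704 (Opn1mw and Rxrg) and 0.863 (Gnb3).

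The listed genes of inner retinal neurons held a small share of the eyeball library, which does not measure the part of these cells in it. The 47 genes of the bipolar, amacrine and horizontal, and ganglion cell lists together held 0.414% in A and 0.390% in B, less than Gnat1 alone. Among bipolar genes, Trpm1, the cation channel of ON bipolar cells, held 0.0594% and 0.0593%, and Prkca, the kinase that marks rod bipolar cells, held 0.0490% and 0.0498%. Grm6, the glutamate receptor of ON bipolar cells, stood at 0.00857% and 0.00823%. For amacrine and horizontal cells, Pax6, a transcription factor of the developing and mature eye, held 0.0277% and 0.0284%, and the glycine transporter Slc6a9 held 0.0220% and 0.0205%. Gad1, an enzyme of GABA synthesis, stood at 0.0142% and 0.0111%. The 15 ganglion cell genes summed to 0.0496% and 0.0431%, led by the neurofilament Nefl at 0.0136% and 0.0121%. Pou4f2, a transcription factor of ganglion cells, had 653 and 321 units. No member of these 3 lists with a mean of at least 50 units was more than 2-fold apart. Of all genes tested, 3.00% were more than 2-fold higher in B and 1.55% in A. Ptf1a, at 10 and 7 units, was not counted.

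Synaptic genes of general use held 0.568% and 0.502% over 17 members, each with the higher share in A. Syt1, the calcium sensor of vesicle release, led with 0.0829% and 0.0691%. Snap25, a membrane fusion protein, held 0.0668% and 0.0564%, and Slc17a7, the vesicular glutamate transporter of photoreceptors and bipolar cells, 0.0599% and 0.0574%. Syn2, a synapsin, was the 1 member over 2-fold apart, at 2677 and 931 units (5.88% of the list, beside 1.55% of all genes tested). The median ratio of the list was -0.14, beside -0.0056 over all genes tested. In the inner retinal lists, 13 of 15 bipolar and 13 of 15 ganglion cell genes had the higher share in A (medians -0.17 and -0.17). The amacrine and horizontal list was closer to even, with 9 of 16 counted genes higher in A and 7 in B (median -0.12). Neuronal genes in these lists therefore tended to a slightly higher share in A, by a margin that for most members was well under 2-fold.

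Müller glia completed the retinal lists, and pigment cells formed a list of their own. The 16 Müller genes held 0.507% and 0.519%, with Glul, the glutamine synthetase that recycles glutamate, at 0.164% and 0.179%. Rlbp1, a retinoid-binding protein of Müller glia and pigment epithelium, stood at 0.0217% and 0.0236%. The 16 genes of the pigment epithelium and melanocyte list held 0.258% and 0.301%. They are not part of the retinal sum given below. The melanin enzymes Dct (0.0530% and 0.0684%) and Tyrp1 (0.0459% and 0.0531%) and the carrier Ttr (0.0506% and 0.0472%) were the largest of these. Pmel, the fibril protein of melanosomes, held 0.0275% and 0.0442%. None of the 32 genes was more than 2-fold apart, beside 3.00% (higher in B) and 1.55% (higher in A) of all genes tested.

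Lens genes gave the largest share among the tissue lists. The 16 crystallin genes held 5.92% of the remaining units in A and 5.82% in B, a mean of 5.87% ± 0.0690 (SD, n = 2), and 8 of them had the higher share in each library. The alpha-crystallins Cryaa and Cryab, which act as chaperones, made up 27.3% of the crystallin units in A and 24.4% in B. The 6 beta-crystallins made up 38.5% and 42.2%, and the 6 gamma-crystallins of chromosome 1 made up 27.9% and 27.8%. Cryaa stood at 1.30% and 1.15%, Crybb2 at 0.842% and 1.06%, and Cryba1 at 0.873% and 0.880%. Crygs, a gamma-crystallin of the outer lens, held 0.365% and 0.322%. Individual crystallins thus varied more between the libraries than their sum did.

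Among the gamma-crystallins of chromosome 1, Cryge and Crygf stood furthest apart between the libraries, while Crygd lay near parity. Crygd had 391852 units in A and 296685 in B, or 0.395% and 0.410% of the remaining units. Cryge had 388216 and 191044 units, or 0.391% and 0.264%. Crygf had 44995 and 63428 units, or 0.0454% and 0.0877%. Cryge was thus lower in B, with a ratio of 0.675, and Crygf higher, with a ratio of 1.93, whereas the sum of the 6 genes had a ratio of 0.979. Crygb at 0.458% and 0.509%, Crygc at 0.281% and 0.244% and Cryga at 0.0807% and 0.102% lay between these. Fragments of near-identical genes can be divided between them by the counting, so the values of Cryge and Crygf are uncertain one by one. Their sum was 0.437% in A and 0.352% in B.

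The 100 bases before an annotated transcript start of Crygb and of the 3 most alike genes are shown. Crygb, Crygd and Cryge carry much of the gamma-crystallin share and lie close together. Crygf holds less and lies further along the same chromosome, on the other strand. Sequences are from RefSeq on GRCm38.p6 and run 5′ to 3′ on the gene's own strand. Capitals mark every match to CTTTTGTG or to TATATA on either strand, with overlapping matches joined. The windows are chr1:65082291-65082390 (minus strand) for Crygb, chr1:65063441-65063540 (minus strand) for Crygd, chr1:65051164-65051263 (minus strand) for Cryge and chr1:65926422-65926521 (plus strand) for Crygf.
Crygb: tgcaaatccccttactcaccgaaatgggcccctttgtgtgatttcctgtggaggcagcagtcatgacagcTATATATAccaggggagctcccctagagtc
Crygd: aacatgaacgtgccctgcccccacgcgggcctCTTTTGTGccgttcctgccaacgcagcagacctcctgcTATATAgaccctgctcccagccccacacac
Cryge: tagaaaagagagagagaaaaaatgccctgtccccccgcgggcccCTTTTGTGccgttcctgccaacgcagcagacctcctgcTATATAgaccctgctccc
Crygf: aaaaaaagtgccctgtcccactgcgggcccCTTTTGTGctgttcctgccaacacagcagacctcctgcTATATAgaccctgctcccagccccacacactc
Over the 56 bases that end with TATATA, Crygd and Cryge shared 54 bases, Cryge and Crygf 52, and Crygd and Crygf 50. Crygb shared 23, 23 and 25 with Crygd, Cryge and Crygf. CTTTTGTG was present in 5 of the 6 gamma-crystallin windows, and not in that of Crygb, against 0.460% of 32851 annotated windows of 100 bases. TATATA was present in 6 of 6, against 2.19%. Both motifs were picked after viewing these windows, and a match is a description of the letters and not of a binding site. The start used for Cryge lies inside the annotated gene (chr1:65048555-65051816), unlike the starts of the other 5 genes, so distances to the start were not compared.

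Beyond the crystallins, 16 genes of lens fibres held 0.571% and 0.476%. Mip, the aquaporin of fibre cell membranes, led with 0.136% and 0.131%, and Lgsn, a glutamine synthetase relative of the lens, followed with 0.0780% and 0.0744%. Bfsp2, a subunit of the beaded filament, stood at 0.0456% and 0.0517%. Its partner Bfsp1 had 93555 units in A and 28806 in B, or 0.0943% and 0.0398%. It was the 1 fibre gene more than 2-fold apart (6.25% of the list, beside 1.55% of all genes tested). Lenep, a small protein of lens epithelium and fibres, held 0.0771% and 0.0508%. Grifin, a galectin-like lens protein outside the fixed list, went the same way, with 61001 units in A and 10266 in B, 4.33 times higher in A as a share. The subunits of the beaded filament thus differed in how far they stood apart, with ratios of B to A of 0.422 for Bfsp1 and 1.13 for Bfsp2. Together the 32 lens genes held 6.49% and 6.30%, beside 5.88% and 5.51% for the 117 retinal genes.

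The ocular surface was marked by corneal keratins and stromal collagens. The 18 matched genes of corneal and conjunctival epithelium held 0.840% in A and 1.02% in B. All 18 had a higher share in B, with a median ratio of 0.33, beside -0.0056 over all genes tested. Krt12, the keratin of the corneal epithelium, held 0.210% and 0.234%, and Krt5, the keratin of basal cells, 0.174% and 0.240%. Aldh3a1, an abundant corneal enzyme that removes aldehydes, held 0.148% and 0.160%. Muc4, a membrane mucin, stood at 0.0897% and 0.0975%. Muc5ac, the gel-forming mucin of conjunctival goblet cells, had 648 units in A and 11206 in B and was 23.7 times higher in B as a share, the widest ratio of any gene named by share and ratio. Krt19, a keratin of conjunctiva and limbus, was the other member more than 2-fold apart, at 4173 and 6798 units. These 2 are 11.1% of the list, beside 3.00% of all genes tested that were more than 2-fold higher in B.

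Stromal genes were nearer to parity. The 19 members held 0.987% and 1.10%, with Col1a1 at 0.240% and 0.229%, Col1a2 at 0.166% and 0.171%, and Dcn, the proteoglycan decorin, at 0.122% and 0.113%. Kera, the corneal proteoglycan keratocan, stood at 0.0217% and 0.0209%. Sparc, a matricellular glycoprotein, was 2.25 times higher in B (48517 and 79695 units), and Col3a1, the collagen of looser connective tissue, was 1.93 times higher (51601 and 72486 units). Genes of the vitreous, ciliary body and corneal endothelium held 0.0821% and 0.0844% over 11 members, led by the water channel Aqp1.

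**Figure D3:**
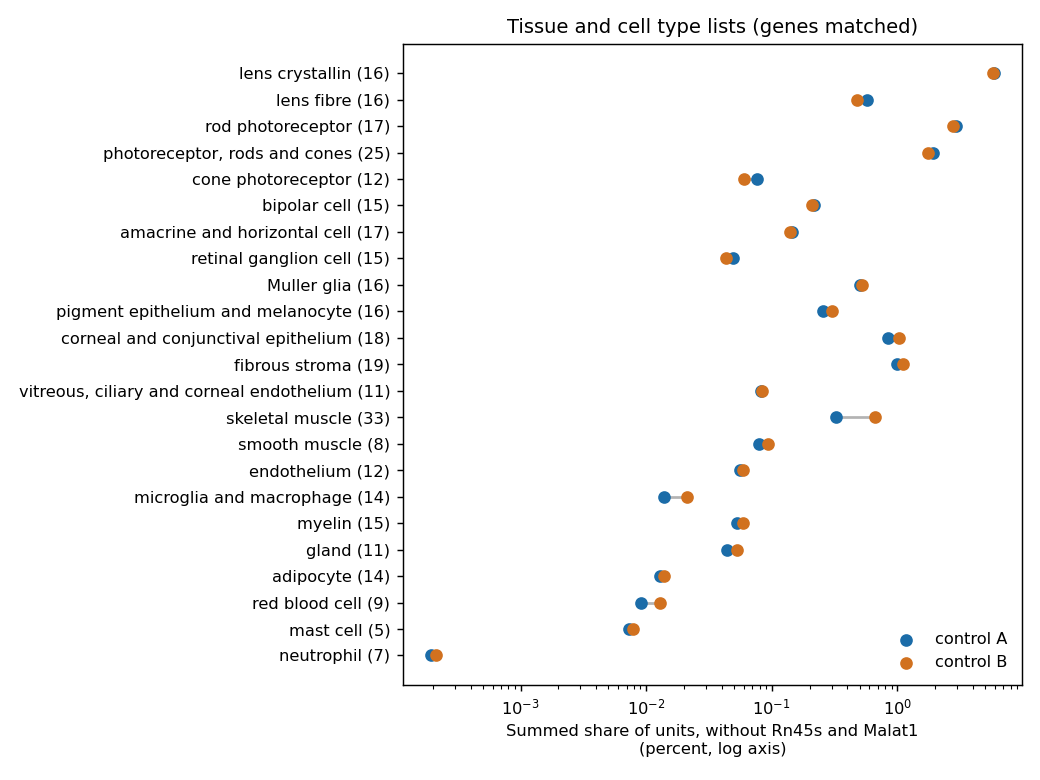
Summed share of units without Rn45s and Malat1 (percent, log axis) of 23 tissue and cell type lists, with a point for control A and a point for control B, and the number of genes matched in brackets. The crystallin points sit at 5.92% and 5.82% and the rod points at 2.95% and 2.78%, and the skeletal muscle points at 0.326% and 0.661% are the widest apart among the lists above 0.1%.

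Skeletal muscle was the list that differed most between the libraries. Its 33 genes held 0.326% of the remaining units in A and 0.661% in B, a ratio of 2.03, and all 33 had a higher share in B. Of these, 22 were more than 2-fold higher in B and 0 in A, beside 3.00% and 1.55% of all genes tested, and the median ratio was 1.16. Ttn, the giant spring protein titin, supplied 52.4% of the list's units, with 173832 units in A and 247292 in B. Without Ttn the ratio of the list was 2.12. The difference did not rest on titin alone.

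Within the muscle list, fast and slow fibre genes were both present and both higher in B. Atp2a1, the calcium pump of fast fibres, held 0.0210% and 0.0488%, and Myh4, the heavy chain of the fastest fibres, 0.0258% and 0.0366%. Myh2, the heavy chain of fast oxidative fibres, had 4743 and 14174 units and was 4.10 times higher in B. Mb, myoglobin, had 2411 and 8205 units, 4.67 times higher in B. Myh7, the slow heavy chain, had 185 and 1003 units, and Acta1, skeletal actin, 6392 and 11183. Heavy chains known from extraocular muscle showed wide gaps. Myh13 was listed at 0 in A and had 1091 units in B, and no fold is given against a value of 0. Myh3, the embryonic heavy chain, had 3801 and 16421 units, a ratio of 5.93, and Myh15 had 2675 and 10759 units, a ratio of 5.52. The 8 smooth muscle genes held 0.0793% and 0.0939%, all higher in B but none more than 2-fold. Their median ratio was 0.38, beside -0.0056 over all genes tested. The gap was thus wider for striated than for smooth muscle genes in these libraries.

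Vessel, blood and immune genes were scarce. The 12 endothelial genes held 0.0557% and 0.0595%, led by Kdr, a receptor for vascular endothelial growth factor, at 0.0236% and 0.0218%. The 14 microglia and macrophage genes held 0.0139% and 0.0212%. All 14 had the higher share in B, with a median ratio of 0.65, beside -0.0056 over all genes tested. Csf1r, the receptor that sustains these cells, had 4370 and 4121 units, and Ctss, a lysosomal protease, 1406 and 2048. Aif1 was the 1 member more than 2-fold apart, at 57 and 130 units (7.14% of the list, beside 3.00% of all genes tested). Its mean lies in the range of 50 to 200 units, where 228 of 2054 genes were more than 2-fold higher in B. Of the 7 neutrophil genes, Elane was at 0 in both libraries, S100a8 had 0 and 2 units, and the largest, Ngp, had 47 and 96. Mast cell genes were present at a low level, with Mcpt4 at 531 and 376 units and Cpa3 at 376 and 426.

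Globin genes went in opposite directions by copy. Hba-a1 had 2343 units in A and was listed at 0 in B, and Hba-a2 had 621 in A and 5429 in B. These alpha-globin genes are near-identical copies, so each is uncertain alone. Their sum was 2964 units in A and 5429 in B, 2.51 times higher in B as a share. Hbb-bt was at 539 and 0 units, while the 4 beta-globin symbols together had 4434 and 2809 units, a ratio of 0.869. The sums of alpha and beta globins therefore did not move together between the libraries.

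Genes known from fat, glands and myelin were mostly few, and the sums of the fat and gland lists were each led by a gene that other tissues also express. Adipoq, the hormone of fat cells, had 8 and 30 units and Plin1, which coats lipid droplets, 40 and 13, while Cidec and Lep were at 0 in both libraries. Obp1a, Obp1b, Pip and Sval2 of the gland list were at 0 in both, and Awat2, a wax ester enzyme of meibomian glands, had 85 and 59 units. Aqp5, a water channel that the corneal epithelium also expresses, made up 98.6% of the gland list. In the myelin list, Mal led with 28029 and 25370 units and Mbp, myelin basic protein, had 5513 and 4367. The oligodendrocyte genes Mog (39 and 34 units) and Olig2 (4 and 0) were close to 0, while Pmp22, a protein of Schwann cell myelin, had 6567 and 4359. Adipoq, Plin1 and the gland secretory genes were thus few beside those of muscle. The 14 fat genes summed to 0.0128% and 0.0139%, of which Car3, a carbonic anhydrase that muscle also expresses, made up 48.2%. The part of attached muscle or surface tissue in the other differences between A and B was not tested.

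**Figure D4:**
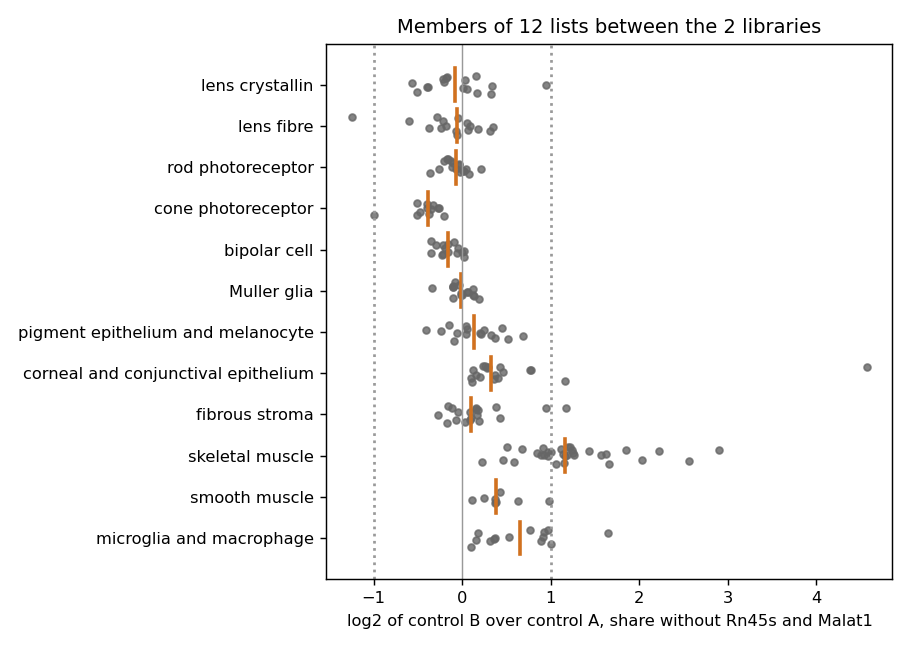
The log2 ratio of control B to control A, on shares without Rn45s and Malat1, of each member with a mean of at least 50 units in 12 lists, with orange bars at the list medians, dotted lines at 2-fold and points spread vertically for legibility. Skeletal muscle (median 1.16) and microglia and macrophage (0.65) lie to the right and cone photoreceptors (-0.39) to the left, and Muc5ac is the isolated corneal and conjunctival point. Myh13, at 0 in A, cannot be drawn.

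Genes of general use had similar summed shares in the libraries, with each list sum slightly higher in B. Among members with a mean of at least 50 units, 65 of 89 ribosomal protein genes had the higher share in B. So did 62 of 82 oxidative phosphorylation genes and 12 of 15 translation factors, but only 8 of 17 glycolytic genes. The median ratios of these 4 lists were small, at 0.14, 0.17, 0.15 and -0.064 in that order, beside -0.0056 over all genes tested. The 93 matched ribosomal protein genes held 0.979% and 1.07%, the 15 translation factors 0.704% and 0.755%, and the 84 nuclear genes of oxidative phosphorylation 0.403% and 0.451%. Eef1a1, the elongation factor that delivers aminoacyl-tRNA, held 0.210% and 0.215%. The 17 glycolytic genes held 0.664% and 0.689%, with Pkm, pyruvate kinase, at 0.108% and 0.117%, and Gapdh at 0.0828% and 0.111%. Aldoc, the aldolase of neural tissue, stood at 0.0240% and 0.0261%. The cytoskeleton list held 0.449% and 0.483%, with Actb at 0.168% and 0.176%, and the chaperone list held 0.3501% and 0.359%. Immediate early genes held 0.0405% and 0.0454%, with Fos at 2053 and 1505 units and Egr1 at 4457 and 3586. Of the 89 ribosomal protein genes, 3 were more than 2-fold higher in B (3.37%, beside 3.00% of all genes tested). In A, 2 were more than 2-fold higher (2.25%, beside 1.55%). Rps2 was 1 of these 2, at 11583 units in A and 2630 in B, 3.21 times higher in A. Its many processed copies in the genome make its count uncertain.

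Among long noncoding RNAs other than Malat1, Xist held 0.415% and 0.387%, and Kcnq1ot1, an imprinted antisense transcript, 0.0935% and 0.0776%. Meg3, an imprinted maternally expressed RNA, held 0.0803% and 0.0606%. Neat1, the scaffold of paraspeckles, held 0.0416% and 0.0463%. The microRNA host transcript Mir124a-1hg held 0.132% and 0.111% and made up 77.6% of all units under microRNA symbols. It is the host of the neuronal microRNA miR-124. Of these RNAs, Neat1 was the 1 with a higher share in B.

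The 100 largest genes of the remaining units show how the tissues share the top of the profile. Lens genes took 16 places and photoreceptor genes 13, and no gene of the inner retinal neuron lists was among them. Ocular surface and stroma took 9 places and skeletal muscle 1, that of Ttn. Lens genes made up 31.4% of the units of these 100 genes and photoreceptor genes 18.9%, both as means over the libraries. In none of the lists were 44 of the 100 genes, among them Ahnak, Gnb1, Igfbp5, Map1b and Slc6a6. Grk1, a kinase of the photoreceptor outer segment, was also among the 44, so the listed genes understate the retinal share. All tissue and cell type lists together, 341 genes, held 15.1% of the remaining units in A and 15.3% in B.

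A few genes with sizeable shares stood far apart between the libraries without belonging to any group that did. Nrip1, a nuclear receptor corepressor, had 16725 units in A and 1175 in B, 10.4 times higher in A as a share. Mdm4, a regulator of p53, had 20825 and 3743 units, 4.06 times higher in A. Atp6v0c, the proteolipid ring subunit of the vacuolar proton pump, had 10742 and 2332 units, 3.36 times higher in A. No other RefSeq gene overlapped any of these 3. Tmem181b-ps, a transcribed pseudogene, had 15109 and 786 units, 14.0 times higher in A, and its reads may be shared with its parent gene. Of the 756 genes more than 2-fold apart on the remaining units, 24.5% lay in a locus shared with another gene, against 30.2% of all genes tested.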

How the data were processed

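Per the labels' protocols, RNA was extracted with Trizol, depleted of ribosomal RNA with capture probes, fragmented and reverse transcribed from random primers. Tools listed in the submitters' processing notes, with no step assigned to any, are HISAT2, StringTie, bcl2fastq 2.0, limma and DESeq2, beside the build mm10. The deposited values were read as estimated counts for each symbol that the authors had not scaled to a common total. In the low values, 213 and 203 equalled 4 and 219 and 233 equalled 5, against 132 and 161 equal to 3 and 120 and 106 equal to 6, in A and B. A fragment may therefore add more than 1 unit, and no counting interval is given. Whether counting used strand is not stated, so overlapping genes are uncertain.

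Shares of the column total were computed per library with pandas 2.3.3 and numpy 2.4.6 in Python 3.11.15, with and without Rn45s and Malat1. Ratios were counted among genes with a mean of at least 50 units, and TMM factors (edgeR 4.0.16) and size factors (DESeq2 1.42.0, in R 4.3.3) served as alternative scalings. The scripts were tested on simulated data. With 1 group of 2 libraries no test between conditions was made, and SDs describe 2 libraries. Of the symbols, 24623 matched RefSeq positions on GRCm38.p6, the assembly called mm10.

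Genes were named by rule: the 20 largest mean shares, the 8 largest differences in percentage points each way, the 6 largest ratios each way among genes with a mean share of at least 0.005% (no Gm or Rik symbols), up to 5 members of each list, and list members at 0 in both libraries. Some of the genes so named are left out of the text and not reported here. Other list members were named after their values were seen. The libraries and the lists were chosen with earlier results of these data known.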

Additional observations from a re-analysis of the deposited data

How the results depend on the processing

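The denominator moved the shares, and the minimum of units moved the count of genes apart. The share of the 10 largest genes, 18.0% on all units, was 7.15% without Rn45s and Malat1, 10.03% without Rn45s and 6.87% without these and Lars2. The crystallin share of all units, 5.14%, was 5.87%, 5.66% and 5.91% under the same settings, and the rod share, 2.52%, was 2.87% without Rn45s and Malat1 and 2.89% without Lars2 as well. These follow from the smaller denominators. On all units 770 genes were more than 2-fold apart, of which 383 were higher in A and 387 in B. The number was 756 (257 and 499) without Rn45s and Malat1, 759 (256 and 503) with TMM factors, 756 (256 and 500) with DESeq2 size factors and 614 (283 and 331) with overlapping genes summed. It was 241 with a mean of at least 500 units, 1762 for all genes with units in both libraries, and 389 with units divided by 4, where fewer or more genes were counted. The last setting and the one without Lars2 were chosen after seeing the data. Leaving out a library leaves the other library's value, so the share of the 10 largest genes ran from 13.4% to 22.5%. Shares per transcript length were not computed, as only genomic spans were at hand. No paired analysis was possible because a single group was described. With 2 libraries, a ratio for genes of low counts is imprecise.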

Other observations

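Units of the remaining library were spread over the chromosomes at similar shares in A and B. Chromosome 11 held 9.36% and 9.46%, chromosome 1, which carries 6 gamma-crystallin genes and Sag, 8.58% and 8.52%, and the X chromosome 3.16% and 3.04%. Chromosome 9, which carries Lars2, held 7.04% and 7.60%. The replication-dependent histone genes, whose transcripts lack a poly(A) tail, held 0.0644% and 0.0666%.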
